A study of Mus musculus with 4 samples.

Results

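Gap43, Basp1, Marcks, Nrgn and Ncdn encode abundant neuronal proteins of axons and dendritic spines that bind calmodulin or the membrane lipid PIP2, together with neurochondrin. They were taken by name: every probe set whose array annotation gives exactly 1 gene symbol, that symbol being 1 of the 5. All 5 genes were on the array, with 6 of its 12422 non-control probe sets, 2 for Basp1 and 1 for each of the others. All 6 were bright enough to be among the 7453 probe sets tested. The arrays measured total RNA of the dentate gyrus, the granule cell field of the hippocampus, in young male mice of the inbred strain C57BL/6J. The samples were 4 controls that an experimenter had handled and that had no other treatment, collected when shocked mice of the same experiment were at 1, 2, 4 or 6 h after their last shock. Shocked mice were not analysed here, so every value below is from resting, handled animals. With 1 array per hour, a difference between hours cannot be told apart from a difference between arrays, and the number of mice behind each RNA is not stated in the labels. Any mean ± SD runs over the 4 arrays, and the number of arrays limits its precision.

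These genes are known for the way the inner face of the neuronal membrane is shaped. GAP-43 in axons and neurogranin in spines hold calmodulin when calcium is low and release it when calcium rises or when protein kinase C phosphorylates them. MARCKS and BASP1 (also called CAP-23 or NAP-22) are fatty-acylated proteins that cluster PIP2 and so influence the actin cortex beneath growth cones and spines, and calmodulin or protein kinase C detaches MARCKS from the membrane. Neurochondrin (norbin) is a cytoplasmic neuronal protein linked to neurite outgrowth, metabotropic glutamate receptors and restraint of CaM kinase II. In the adult rodent hippocampus, Gap43 transcripts are known more from CA3 and hilar neurons and from newborn granule cells than from mature granule cells.

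The deposited values are intensities on a linear scale, which compare 1 probe set between arrays but do not rank transcript levels between genes. Granule cell markers were present, with Calb1 (calbindin) at 2033, 2052, 2323 and 2375 and Dsp (desmoplakin) at 970.2, 1025, 1051 and 1109 at 1, 2, 4 and 6 h. Transcripts of other cells were present as well, such as Rgs14, a CA2 pyramidal marker (3951, 2956, 3782 and 3013), so the tissue was mixed. Not every marker was bright. Of 8 probe sets of granule cell markers 7 were bright enough to be tested. Of 4 probe sets of CA pyramidal markers 3 were, and that of Pcp4 was too dim. In such bulk RNA, fewer cells of a type and less RNA per cell cannot be told apart. The 1 h array stood apart in 1 measure of RNA quality, the ratio of the 3' to the 5' probe set of Gapdh, a control transcript. This ratio was 4.88 there and 1.13, 1.33 and 1.24 at 2, 4 and 6 h. For beta-actin, another control, the ratio set the 1 h array apart less, at 2.51, 1.83, 2.2 and 1.97 in order of hour. The slope of each member is given below with and without the 1 h array.

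Gap43 was the only one of the 6 probe sets whose intensity was higher at each later hour. It read 1367, 1483, 1782 and 2043 at 1, 2, 4 and 6 h, a mean of 1669 ± 305 (SD, n = 4). The 6 h array was 1.49 times the 1 h array. The slope was 0.118 ± 0.038 (SE) log2 units per hour, with a 95% interval of 0.026 to 0.209, which spans 1.10-fold to 2.06-fold over 5 h. It did not pass the test: the unadjusted p was 0.0191, and the adjusted p in limma over all 7453 probe sets was 0.874. The exact permutation test of the slope over the 24 orders of the arrays gave a two-sided p of 0.0417, the smallest that 24 orders can give, and 0.94 after adjustment over all probe sets. That smallest value was reached by 3.76% of the tested probe sets, and 4.44% (331 probe sets) were strictly rising over the hours. The slope without the 1 h array was 0.116, and it lay between 0.116 and 0.128 when any 1 array was left out. The probe set is of a type (_s_at) that can share sequence with related transcripts.

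**Figure D1:**
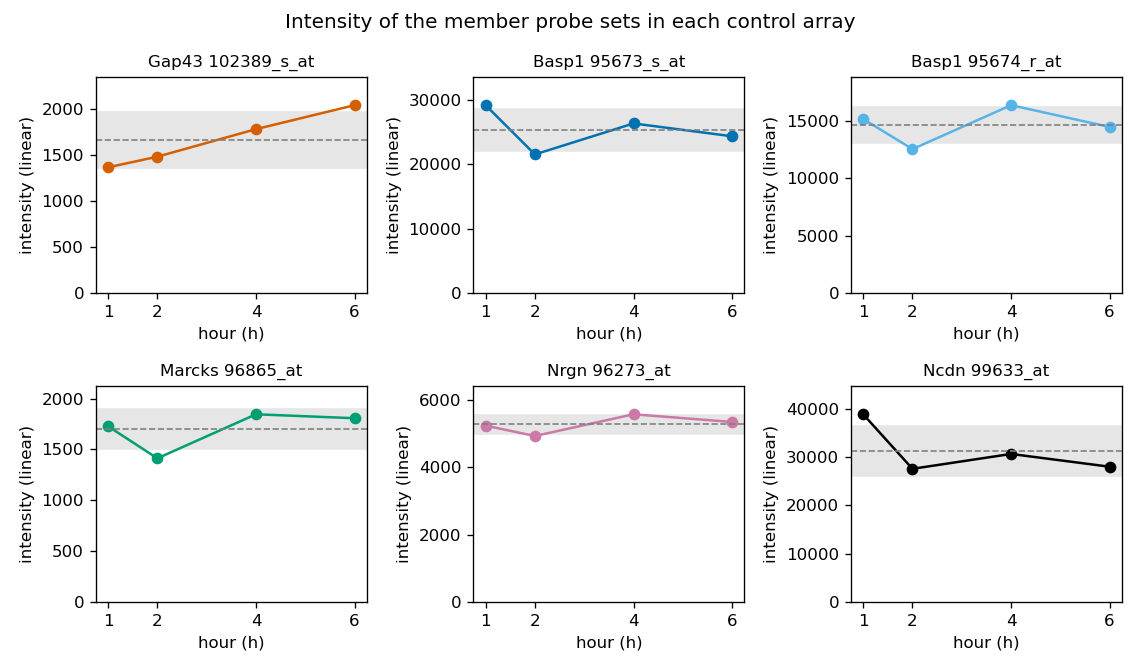
Intensity (linear scale, each axis from 0) of the 6 probe sets against hour, 1 point per control array; dashed lines and grey bands are the mean and SD over the 4 arrays. Gap43 is highest at 6 h (2043) and lowest at 1 h (1367), while the other 5 probe sets are lowest at 2 h.

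Marcksl1 (MARCKS-like protein 1), the close relative of Marcks, had nearly the same profile as Gap43. It read 1499.8, 1719, 2038 and 2245 in order of hour, with a slope of 0.114 and an adjusted p of 0.874 in limma. The root mean square difference between its log2 deviations and those of Gap43 was 0.035 over the 4 arrays, and 7 tested probe sets lay that near to Gap43 or nearer, Marcksl1 included. Nearest under the naming rule were Tcn2, a vitamin B12 carrier (508.8, 557.2, 683.9 and 766.7), and Taf1b, a factor of RNA polymerase I (354.6, 377.7, 467.6 and 535.9), at 0.0162 and 0.0173. Stmn1 (stathmin), a microtubule regulator of young neurons, was also higher at each later hour (2665, 4026, 4865 and 4956), but differed more from Gap43, by 0.197. The markers of immature neurons had a summed intensity of 12911, 16200, 16619 and 18137 at 1, 2, 4 and 6 h. The largest part of that sum was the brighter probe set of Tubb3, a gene also on the axon growth list (6613, 8852, 8048 and 9034). Of the list's 7 tested probe sets 6 had positive slopes, against 46.5% of all tested probe sets, and the slopes of Sox4 were -0.003 and 0.039. Of these 7, 0 passed in limma and only that of Stmn1 had an unadjusted p under 0.05. Dcx (doublecortin), which marks newborn neurons, read 304.1, 179.8, 306 and 421.3. The part of newborn neurons in the Gap43 values was not tested.

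Most markers of choroid plexus and ependyma, tissue beside the dentate gyrus, had positive slopes too. The 1 probe set that passed the slope test over the whole table was that of Ttr (transthyretin), which choroid plexus makes in bulk, at 224.6, 443.6, 1258 and 3009 (slope 0.741, adjusted p = 0.0232 in limma). No probe set passed without the 4 h array or without the 6 h array. The choroid plexus and ependymal list had a summed intensity of 2226, 3851, 5133 and 7104, with 4 of 5 slopes positive, a median slope of 0.352 and 3 unadjusted p-values under 0.05. The summed thalamic and striatal list read 3875, 3686, 4580 and 4725, with 4 of 5 slopes positive. Of this list, Pde1b, a phosphodiesterase high in striatum, read 1594, 1879, 2429 and 2733 (slope 0.156, adjusted p = 0.874 in limma). Whether the Pde1b signal came from outside the dentate gyrus was not tested. The brightest Penk probe set of the same list read 1507, 1106, 1244 and 1064 (slope -0.07). The summed meningeal and fibroblast list read 24277, 32341, 43055 and 27034, with a median slope of 0.018. The granule cell list, whose sum was 5804, 6589, 6474 and 7150, had 6 of 7 slopes positive and a median of 0.051. The part of the dissected tissue in the Gap43 values was not tested.

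Basp1, whose protein clusters PIP2 in axons and spines, was among the brightest transcripts on the array, with its 2 probe sets 16th and 63rd of 12422 by mean intensity. The brighter, of type _s_at, read 29216, 21556, 26378 and 24377.5 at 1, 2, 4 and 6 h, a mean of 25382 ± 3232 (SD, n = 4). The dimmer, of type _r_at, read 15172, 12545, 16374 and 14474, a mean of 14641 ± 1603 (SD, n = 4). Both were lowest at 2 h. They differed at the top, where the brighter was highest at 1 h and the dimmer at 4 h. Probes of the _r_at type were picked under relaxed selection rules, so these values are less certain. The slope was -0.019 ± 0.047 (SE) log2 units per hour for the brighter probe set, and 0.001 when the arrays were scaled to a common median. It was 0.016 ± 0.044 (SE) for the dimmer. Neither passed, with adjusted p-values of 0.958 and 0.964 in limma, and the 95% intervals, -0.132 to 0.094 and -0.089 to 0.122, span 0.634-fold to 1.38-fold and 0.734-fold to 1.52-fold over 5 h. Without the 1 h array the slope of the brighter probe set was 0.044 and that of the dimmer 0.052.

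Ncdn (neurochondrin) was the fifth brightest of all non-control probe sets. It read 38826, 27553, 30623 and 27982 at 1, 2, 4 and 6 h, a mean of 31246 ± 5232 (SD, n = 4). The 1 h array stood above the other 3, and the highest array was 1.41 times the lowest. The slope was -0.064 ± 0.047 (SE) log2 units per hour (95% interval -0.176 to 0.049), with an adjusted p of 0.876 in limma. It came to 0.006 without the 1 h array. The largest difference between arrays, 0.495 on the log2 scale, was 0.152 without that array and 0.145 after quantile normalization. The 3' control probe sets were highest at 1 h too, at 36881, 30325, 33100 and 31508 for Gapdh and 40257, 33393, 31878 and 31198 for beta-actin at 1, 2, 4 and 6 h. The part of RNA quality in the 1 h value of Ncdn was not tested.

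Ncdn and the brighter Basp1 probe set were both highest at 1 h, as were 35.4% of all tested probe sets, with a root mean square difference of 0.090 in log2 deviation over the 4 arrays. The dimmer Basp1 probe set differed more from Ncdn, by 0.178, and less from Marcks and Nrgn, by 0.062 and 0.083. Nearest to Basp1 under the naming rule were Cav1, the caveolin of cell surface pits (257.7, 186, 225.7 and 211.6), and Lysmd1 (151, 106.6, 132 and 123.8), at 0.0160 and 0.0238. Nearest to Ncdn were Myt1, a zinc finger transcription factor (552.7, 388, 430 and 392.4), and Ube2a, a ubiquitin-conjugating enzyme (968.9, 674.3, 752.4 and 683.7), at 0.0085 and 0.0121. Of all tested probe sets, 80 lay within 0.05 of Basp1 and 73 within 0.05 of Ncdn, so likeness over 4 arrays singles out no small group around either. The same count was smaller for Marcks, at 37, and for Gap43, at 14.

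RefSeq promoter sequences (GRCm38.p6) were given for Basp1, Ncdn and Nrgn, 3 of the 5 genes. The 250 bases before the outermost annotated start of each are shown 5' to 3'. These 3 genes are shown because no promoter sequence was given for Gap43 or Marcks. Capitals mark the GC box GGGCGG, which the factor Sp1 is known to bind, and the CCAAT box CCAAT, searched on both strands with overlapping matches counted.
Basp1, chr15:25413765-25414014, minus strand: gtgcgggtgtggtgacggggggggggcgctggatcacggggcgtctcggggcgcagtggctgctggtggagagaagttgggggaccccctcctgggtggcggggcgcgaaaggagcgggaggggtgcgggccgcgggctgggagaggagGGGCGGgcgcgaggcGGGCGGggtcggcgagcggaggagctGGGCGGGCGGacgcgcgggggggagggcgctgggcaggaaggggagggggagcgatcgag
Ncdn, chr4:126753766-126754015, minus strand: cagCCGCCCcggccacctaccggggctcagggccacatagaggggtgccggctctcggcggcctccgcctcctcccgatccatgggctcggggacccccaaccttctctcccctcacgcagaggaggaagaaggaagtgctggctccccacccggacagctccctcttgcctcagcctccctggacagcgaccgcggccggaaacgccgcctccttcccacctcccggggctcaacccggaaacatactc
Nrgn, chr9:37552746-37552995, minus strand: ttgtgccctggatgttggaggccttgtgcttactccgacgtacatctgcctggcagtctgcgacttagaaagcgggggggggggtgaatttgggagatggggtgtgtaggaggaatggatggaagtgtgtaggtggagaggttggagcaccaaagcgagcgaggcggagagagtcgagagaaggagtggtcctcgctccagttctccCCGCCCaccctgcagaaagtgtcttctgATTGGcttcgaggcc
The Basp1 window was 78.8% G and C and held 4 GC boxes, 2 of them overlapping, and 30 CpG dinucleotides. The Ncdn window was 70.0% G and C, with 1 GC box and 19 CpG, and the Nrgn window 58.4%, with 1 GC box, 1 CCAAT box and 11 CpG. Over 32851 RefSeq windows of the same length, the median was 52.4% G and C and 6 CpG, 32.7% held a GC box and 33.8% a CCAAT box. The TATA box TATAAA (in 12.4% of windows) and the cyclic AMP response element TGACGTCA (in 1.55%) had no match in the 3 windows. These matches describe letters only, and RefSeq lists further starts for Ncdn.

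Marcks, whose protein is a major substrate of protein kinase C, read 1728, 1412.5, 1845.5 and 1807 at 1, 2, 4 and 6 h, a mean of 1698 ± 197 (SD, n = 4). The 2 h array was the low one, and the other 3 lay close together. Without the 2 h array the largest difference was 0.095 on the log2 scale, against 0.386 with it. The slope was 0.041 ± 0.046 (SE) log2 units per hour, with a 95% interval of -0.070 to 0.153 and an adjusted p of 0.916 in limma. It was 0.089 without the 1 h array and 0.014 without the 2 h array. Nearest to Marcks in profile were Wiz, a zinc finger protein (523.4, 415.4, 542.4 and 540.7), and Bri3, a membrane protein of brain (1367, 1102, 1482 and 1462), at 0.0183 and 0.0205. Marcks and Marcksl1 differed in profile: Marcksl1 was lowest at 1 h and highest at 6 h, whereas Marcks was lowest at 2 h and highest at 4 h.

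Nrgn (neurogranin), the calmodulin-binding protein of spines, had the smallest spread of the 6 probe sets over all 4 arrays, although not without the 1 h array. It read 5237, 4930.3, 5575 and 5346 at 1, 2, 4 and 6 h, a mean of 5272 ± 268 (SD, n = 4), so the highest array was 1.13 times the lowest. The coefficient of variation was 5.08%, against 10.9% to 18.3% for the other 5 probe sets. The slope was 0.018 ± 0.036 (SE) log2 units per hour, with a 95% interval of -0.069 to 0.104 and an adjusted p of 0.950 in limma. The slope was 0.029 without the 1 h array, where the largest difference was 0.177 on the log2 scale for Nrgn and 0.152 for Ncdn. Over 5 h the interval spans 0.789-fold to 1.43-fold. Nearest in profile were Sltm (668.9, 636.8, 724.6 and 696.2) and Napa, the SNAP protein that recycles SNARE complexes (5203, 4942, 5591 and 5524), at 0.0109 and 0.0214, and 131 tested probe sets lay within 0.05.

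**Figure D2:**
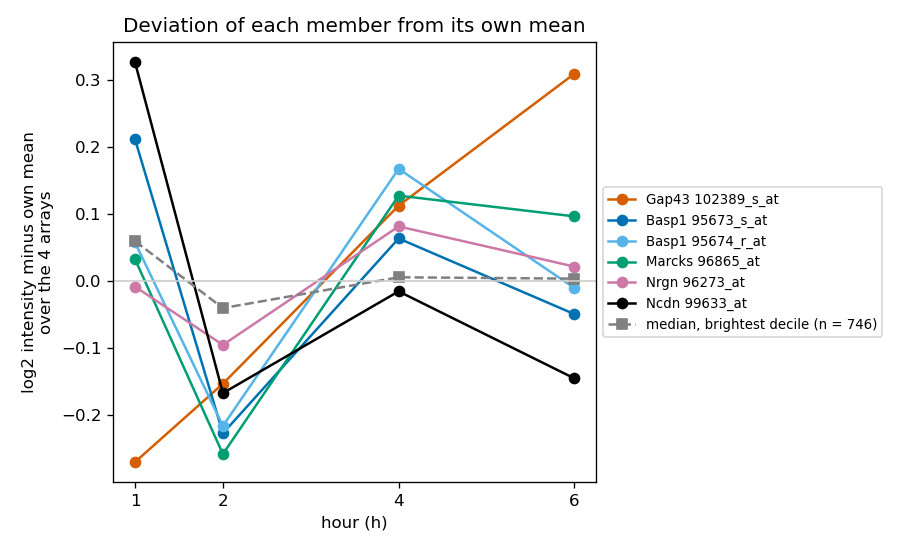
Log2 intensity of each member probe set minus its own mean over the 4 arrays, against hour, with the median of the 746 brightest tested probe sets as grey squares. Gap43 stands at -0.27 at 1 h and 0.31 at 6 h, and the other 5 probe sets are below 0 and at their lowest at 2 h.

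Apart from Gap43, the members shared a low value at 2 h. In 5 of 6 probe sets the 2 h array was the lowest, by -0.258 (Marcks), -0.227 and -0.216 (Basp1), -0.167 (Ncdn) and -0.095 (Nrgn) log2 units from each one's mean. Of all tested probe sets 23.9% were lowest at 2 h, and of the brightest decile, which holds 746 probe sets, 37.1%. The median deviation of that decile at 2 h was -0.040. The count stayed at 5 of 6 with the arrays scaled to a common median or quantile-normalized, settings chosen after seeing the data, although after quantile normalization the 2 h value of Ncdn was -0.039 against -0.034 at 4 and 6 h. Without the 1 h array all 6 were lowest at 2 h, Gap43 because it was higher at each later hour. The share of all tested probe sets lowest at 2 h on those arrays was not computed, so this count has no background. Markers of oligodendrocytes, the myelin-forming cells, were high on the 2 h array. Their summed intensity was 13032, 20100, 13290 and 13673, their median deviation there was 0.51, and 1 probe set of Mobp, a myelin gene, read 1003.5, 2786, 1669 and 1937. The brightest Mobp probe set differed less between 1 and 2 h, at 6091, 6907, 4428 and 4296.5. A dim probe set of Mag was lowest at 2 h (110.9, 104.1, 144.5 and 119.4). The part of oligodendrocyte RNA in the low 2 h values of the members was not tested. The 6 probe sets share the same 4 arrays, so they are not independent observations of the hour.

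Within an array, the ratio of 2 probe sets does not change when the whole array is multiplied by a common factor. Quantile normalization can change it: the 1 h deviation of Ncdn was 0.107 after it and 0.327 before. That of Gap43 was -0.259 after it and -0.27 before. The ratios below are from the values as deposited. The log2 ratio of Gap43 to Ncdn, relative to its mean over the arrays, was -0.597, 0.015, 0.128 and 0.455 in order of hour. That of Gap43 to Marcks was -0.302, 0.105, -0.015 and 0.212, and that of Gap43 to Nrgn -0.262, -0.057, 0.031 and 0.288. Gap43 was thus lowest relative to each of these 3 at 1 h and highest at 6 h. No test of these differences was made, and part of the size of the first ratio comes from the high 1 h value of Ncdn. From its lowest to its highest array, the log2 ratio of the 2 Basp1 probe sets ranged over 0.257, and that of the dimmer Basp1 probe set to Marcks over 0.149. The same range was 1.052 for Gap43 to Ncdn, 0.515 for Gap43 to Marcks and 0.55 for Gap43 to Nrgn.

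**Figure D3:**
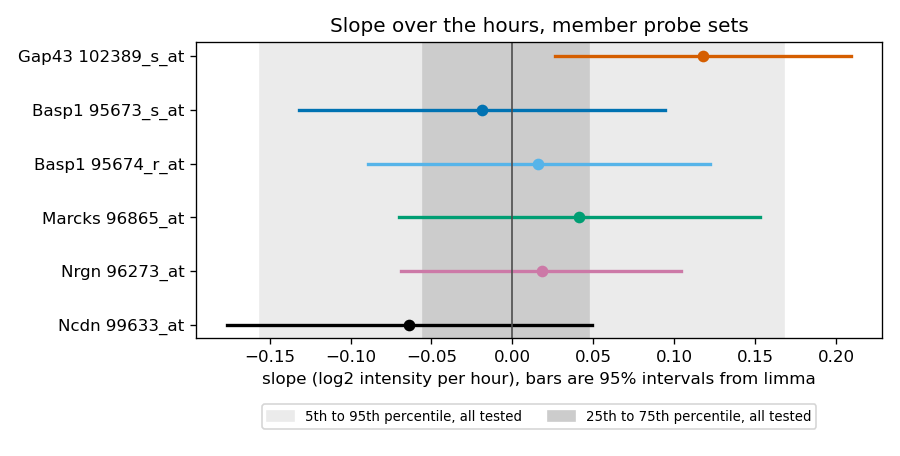
Slope of log2 intensity per hour for the 6 probe sets, with 95% intervals from limma as bars; grey bands are percentiles of the slope over all 7453 tested probe sets. The Gap43 interval (0.026 to 0.209) lies above 0 before adjustment, and the other 5 include 0.

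Over the whole table, 1 of 7453 probe sets (0.0134%) passed the slope test in limma, and 0 of the 6 members did. At an unadjusted p under 0.05 the count was 1 of 6 members, Gap43, and 328 of all probe sets (4.4%). The members' median slope was 0.017 log2 units per hour, against -0.006 over all tested probe sets, and 4 of 6 slopes were positive, against 46.5%. In 0 of 6 members was the highest array at least 2-fold over the lowest, which was so for 18.5% of all tested probe sets. The median ratio of highest to lowest array was 1.33 for the members and 1.46 over all tested probe sets, many of them dimmer.

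Spread depends on brightness, so each member was set beside the tested probe sets of its own intensity decile. Gap43 had an SD of 0.261 on the log2 scale, above 77.4% of its decile (median 0.169). Ncdn had 0.228, above 75.2% (median 0.144), and the Basp1 probe sets 0.185 and 0.162, above 64.3% and 57.8%. Marcks, at 0.176, lay above 53.7%. Nrgn, at 0.074, lay above only 14.3% of probe sets of like brightness. Without the 1 h array, with the same deciles, Ncdn had 0.082, above 47.1%, and Nrgn 0.09, above 52.1%. Gap43 then lay above 89.5%, the Basp1 probe sets above 80.3% and 90.2%, and Marcks above 85.4%.

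**Figure D4:**
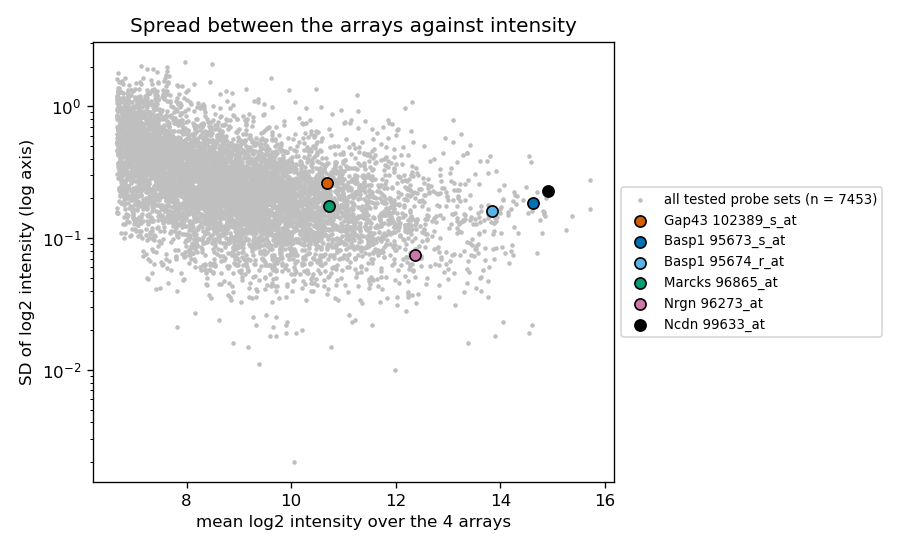
SD of log2 intensity over the 4 arrays (log axis) against mean log2 intensity for the 7453 tested probe sets (grey), with the members in colour. Nrgn (0.074) lies low in the cloud, and Gap43 (0.261) and Ncdn (0.228) lie in its upper part for their intensity.

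The partners of these proteins were followed through 7 gene lists: calmodulin and small calmodulin binders, protein kinase C, CaM kinases and calcineurin, PIP2 metabolism, actin regulators, axon growth, and postsynaptic and spine genes. They held 97 probe sets, of which 72 were tested and 0 passed in limma in either direction. At an unadjusted p under 0.05 there were 5 (6.94%), against 4.4% of all tested probe sets: those of Marcksl1, Pi4ka, Stmn1, Dlg4 and 1 of Actb, each with a positive slope and an adjusted p of 0.874 in limma.

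Calmodulin and small calmodulin binders had 2 tested probe sets, Marcksl1 and Calm2 (calmodulin), with slopes of 0.114 and -0.197, or 0.096 and -0.08 without the 1 h array. Calm2 read 574.9, 289.6, 348.3 and 232.2, highest at 1 h. Pcp4, a small protein with a calmodulin-binding motif like that of neurogranin, was too dim to be tested, at 149.9, 34.5, 20.1 and 10. Of the protein kinase C list, whose products phosphorylate GAP-43, neurogranin and MARCKS, 4 of 11 slopes were positive, with a median of -0.029. Its brightest probe set, of Prkcb, read 11847, 8523, 6863 and 7576 and had a slope of -0.12 (adjusted p = 0.874 in limma), which was -0.042 without the 1 h array. The list's median was 0.001 without the 4 h array. A second probe set of Prkcb was flatter, at 1420, 1327, 1077 and 1334.

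CaM kinases and calcineurin had 4 tested probe sets and a median slope of 0.039, which was 0.021 without the 1 h array, 0 without the 6 h array and -0.004 with no filter on dim probe sets. Camk2b, a CaM kinase II subunit, was steady at 12784, 12030, 13031 and 12870.2, and Ppp3r1, the regulatory subunit of calcineurin, read 8446 at 1 h and 12875, 13263 and 12621 later. Both probe sets of Camk2a were dim and not tested. PIP2 metabolism had 9 of 16 slopes positive and a median of 0.013. Pi4ka, which makes a precursor of PIP2, was its brightest and read 1724, 1741, 1977 and 2359.7, with a slope of 0.093.

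Actin regulators had 10 of 15 slopes positive and a median of 0.101. Actg1, a cytoplasmic actin, was the brightest and nearly flat (18843, 16717, 17189 and 17018). The 2 tested probe sets of Actb had the highest slopes of the list, 0.321 and 0.241, and had their low values at 1 h, at 697.7 and 1809, against 3259 to 4181 and 4760.3 to 5183 later. Without the 1 h array these slopes were -0.09 and 0.031, and the list's median was 0.035. Axon growth genes had 14 of 22 slopes positive and a median of 0.024, or -0.006 without the 1 h array. Their brightest probe set, of Gnao1, a G protein subunit that GAP-43 is known to activate, read 14262, 11421, 12387 and 12390.3. Of the postsynaptic and spine list 2 probe sets were tested, with 1 positive slope and a median of 0.036. Dlg4, the scaffold PSD-95, read 568.7, 871.2, 840.2 and 1087, with a slope of 0.151, or 0.08 without the 1 h array. The other, of Homer2, had a slope of -0.079.

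**Figure D5:**
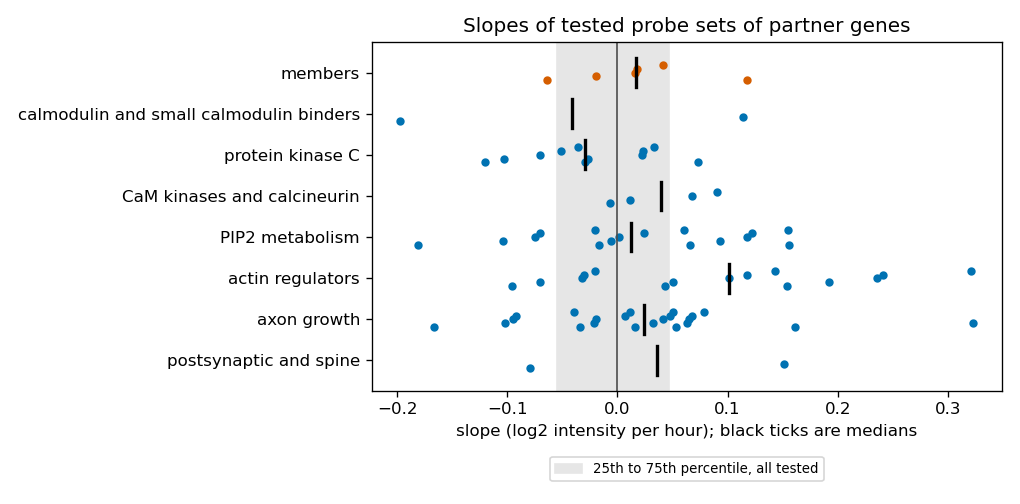
Slope of log2 intensity per hour for each tested probe set of the members (orange) and of the 7 partner lists (blue); black ticks are medians and the grey band is the middle 50% of all tested probe sets. The actin list has the highest median (0.101), and 0 of the 72 partner probe sets passed the test.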

How the data were processed

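The authors deposited 1 table of array intensity values on a linear scale, with a row per probe set and a column per array. The software, scaling and detection calls are not given in the sources used here. Judged by the table itself, the 2% trimmed mean over all rows was 500.3 in each array, which hides any difference in total RNA. Medians of the non-control probe sets were 183.4, 182, 183.6 and 169.4 at 1, 2, 4 and 6 h. The values give no depth. Of 12488 rows, 66 control probe sets were left out of tests. Names came from the platform annotation, updated through Entrez identifiers (RefSeq, GRCm38.p6): 10833 probe sets had 1 gene, 396 several and 1193 none.

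Values under 16.4, the 10th percentile, were raised to that floor before log2. Probe sets whose mean log2 value reached the 40th percentile (6.66) were tested. The slope on the hour was fitted with limma 3.58.1 in R 4.3.3 (lmFit, eBayes with an intensity trend, 2 residual degrees of freedom, two-sided, Benjamini-Hochberg at 0.05 over 7453 probe sets). The design note held that the permutation test could not reach 0.05; because the hours are unevenly spaced, its smallest p is 0.0417. The fit was also run on simulated data, in which every nonzero slope was steeper than that of any member. That run therefore does not show whether slopes of the members' size could be found. P-values measure only the spread between these samples. Members, lists, tests and alternatives (scaling, floor, filter, variance prior, time scale, each array left out) were chosen with earlier results of these data known. Named genes were the members, the 2 probe sets of like profile for each (at least as variable as the member), the brightest tested probe set of each list and any that passed, Marcksl1, Pcp4, and control and marker genes. Stmn1, Calm2, Ppp3r1, Camk2a, Actb, Ttr, Pde1b, Penk, Tubb3, Sox4, Mag, Mobp, Homer2 and the second Prkcb probe set were chosen after their values were seen.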

Additional observations from a re-analysis of the deposited data

Results flagged for a closer look

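Among the values given above, 6 readings had 1 array far from the other 3: in 3 readings of the Gapdh control and 2 partner genes the 1 h array, and in 1 gene the 2 h array. For the middle probe set of Gapdh the gap to the nearest array was 0.958 of the whole range (16969 at 1 h, and 29275, 28959 and 28756 at 2, 4 and 6 h). For the 5' probe set of Gapdh it was 0.905 (7553, and 26761, 24942.5 and 25427), and for the ratio of its 3' to its 5' probe set 0.947 (4.88, and 1.13, 1.33 and 1.24). It was 0.875 for 1 Actb probe set (1809, and 4760.3, 5108 and 5183), 0.867 for Ppp3r1 (8446, and 12875, 13263 and 12621), and 0.85 for Wiz, low at 2 h (523.4, 415.4, 542.4 and 540.7 at 1, 2, 4 and 6 h). Each share lay above Dixon's 95% critical value for 4 samples, which chance exceeds in about 1 of 20 groups, and the Gapdh readings share probe sets. Most named probe sets and the control readings were screened, many more than these 6, so some shares above the critical value would arise by chance. Actb and Ppp3r1 were named after their values were seen, and Wiz for its likeness to Marcks. None of the 6 member probe sets exceeded the critical value. Their largest shares were 0.728 for Ncdn, from its high 1 h array, and 0.728 for Marcks, from its low 2 h array.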

How the results depend on the processing

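In all 13 alternatives 0 of the 6 member probe sets and 0 of the partner probe sets passed in limma, and in all 6 alternatives for differences between hours 0 members reached 2-fold. The slopes of Gap43, Marcks and Nrgn kept a positive sign in all 13, and their lowest adjusted p in limma was 0.284, for Gap43 without the 2 h array. Ncdn came to 0.217 without the same array. Other slopes changed sign, none with a call. The brighter Basp1 probe set had 0.001 with arrays scaled to a common median and 0.015 with late against early arrays, and ran between -0.052 and 0.044 with 1 array left out. Marcks ran between 0.014 and 0.089, the dimmer Basp1 probe set between -0.010 and 0.059, and Ncdn between -0.096 and 0.006 with 1 array left out. Over the whole table the 1 rising call became 0 with no filter, with a variance prior without a trend and with late against early arrays, and was 0 to 1 with 1 array left out; the cause was not tested. The number of members lowest at 2 h was 5 to 6 without the 1, 4 or 6 h array. One Actb probe set had a slope of -0.09 without the 1 h array, a setting added after seeing the data. No paired analysis was possible because each hour has 1 array and the titles carry the same ordinal on all 4 arrays, which therefore separates no pairs. The 95% intervals given above show how precise each slope was with 4 arrays. They are not adjusted for the number of probe sets, so they do not give the smallest change that the adjusted test could call. The Gap43 interval lay above 0, yet its adjusted p in limma was 0.874.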
